A study of Homo sapiens with 2 samples.

Results

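The GALNT genes encode polypeptide N-acetylgalactosaminyltransferases, the enzymes that start mucin-type O-glycosylation. They were examined in the Hodgkin lymphoma (HL) cell line L-428 after knock-down of PRAME, a cancer/testis antigen and repressor of retinoic acid signaling. The members were 10 genes of this family (GALNT1, GALNT2, GALNT3, GALNT4, GALNT6, GALNT7, GALNT10, GALNT11, GALNT12 and GALNT14), and every probe set annotated to exactly 1 of these symbols was used. This gave 22 probe sets for 9 genes, among 41097 probe sets for 19775 genes with 1 symbol. Both probe sets of GALNT4 also carry the symbol of the readthrough gene POC1B-GALNT4, so GALNT4 had no probe set of its own and its values are given apart.
L-428 is an established line of human HL cells. The control array was hybridized with RNA from L-428 cells carrying pcDNA6.2-GW/EmGFP-miR-neg. For the other, L-428 cells carried pcDNA6.2-GW/EmGFP-miR-PRAME, which encodes an artificial microRNA against PRAME. Both vectors also encode the fluorescent protein EmGFP. Per the methods of the study, stable transfectants were selected with blasticidin; whether they were clones or pools is not given in the sources used here. The labels name no treatment with retinoic acid or a cytotoxic drug for either cell population.

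In the Golgi apparatus, GALNT enzymes transfer N-acetylgalactosamine (GalNAc) from the donor UDP-GalNAc to serine or threonine residues of proteins. Most of them have a catalytic domain and a lectin domain that binds GalNAc already attached to a neighbouring site. Some members act on bare peptides and others prefer peptides that carry a first sugar, so the set of enzymes in a cell bears on which sites are used. Other enzymes then elongate and cap the sugar, and many leukocyte surface proteins carry such glycans.

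Each array held 54675 probe sets, and the values were MAS5 signals, a linear measure of probe set brightness. Leaving out 2% of the values at each end, the mean was 499.9 for both arrays. The median signal was 91.9 with the control vector and 109.9 after knock-down. Signals were log2-transformed, and a probe set was kept if its mean reached the overall median, a signal of 97.7. A log2 ratio is the log2 signal of knock-down minus control cells after subtraction of 0.045, the median over the kept probe sets. Folds in the text are taken from these centered log2 ratios. With 1 array per condition there is no replicate and no test, and fixed thresholds of 1.5-fold and 2-fold only describe these arrays. The number of arrays limits the precision. The targeted gene PRAME (204086_at) measured 2115 with the control vector and 1251 after knock-down, a log2 ratio of -0.80.
The cell type was checked by marker genes. A kept probe set was found for 7 of 8 genes that mark Hodgkin and Reed-Sternberg cells, among them TNFRSF8, which encodes CD30. One was also found for 4 of 6 measured B cell markers and for 3 of 6 markers of fibroblasts and stroma (COL1A1, COL1A2 and DCN). None was found for 6 T cell and 5 myeloid markers. However, CD2 (46.6 and 107) and CD8A (30.7 and 103) exceeded the filter signal on the knock-down array alone. Summed signals in control and knock-down cells were 277 and 381 for T cell, 725 and 941 for B cell, and 182.5 and 199 for myeloid markers. Of the Hodgkin and Reed-Sternberg markers, CCL22 was not kept. CD40 (log2 ratio -0.74) and FUT4 (-0.63) were at least 1.5-fold lower, and the other kept ones were within 1.5-fold. The B cell marker MS4A1 (95.9 with the control vector, 135 after knock-down) and COL1A2 passed the filter only through the knock-down array. The summed signal of the fibroblast and stroma markers was 1514 with the control vector and 1243 after knock-down. Most of it was COL1A1, with signals of 1199 and 790. In contrast, COL1A2 was higher after knock-down (53.4 and 184), and DCN was nearly equal (194 and 202). The part of such cells in the results was not tested. The general series description names another HL line, L-540, whereas both sample labels name L-428.

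GALNT3 was the member with the highest log2 ratio after PRAME knock-down, and GALNT12 the one with the lowest. The other 6 measured members differed by less than 1.5-fold in their probe set with the highest signal. At 1.5-fold, 1 of 8 members was higher, against 7.54% of all 11794 measured genes, and 1 was lower, against 5.42%. The median log2 ratio of the 8 members was -0.11, and that of all genes was -0.0069. The family was selected from earlier results of this same contrast, with these log2 ratios known, and its probe sets were then taken by symbol, so the values describe the members and test nothing. At 2-fold, GALNT3 was higher (1.73% of all genes were) and no member was lower (0.729%).
Of the 22 probe sets, 18 passed the filter. Among these 18, 6 had a log2 ratio above 0 and 12 below 0, with a median of -0.042. The median over all kept probe sets is 0 by the centering, so equal shares of them lie on each side. The 12 were probe sets of GALNT1, GALNT2, GALNT7, GALNT10 and GALNT12, and several of them belonged to the same gene. One was at least 1.5-fold higher (8.21% of all kept probe sets were) and 2 were at least 1.5-fold lower (6.2%). At 2-fold, 1 was higher (1.74% of all kept probe sets) and 0 were lower (0.941%).

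**Figure D1:**
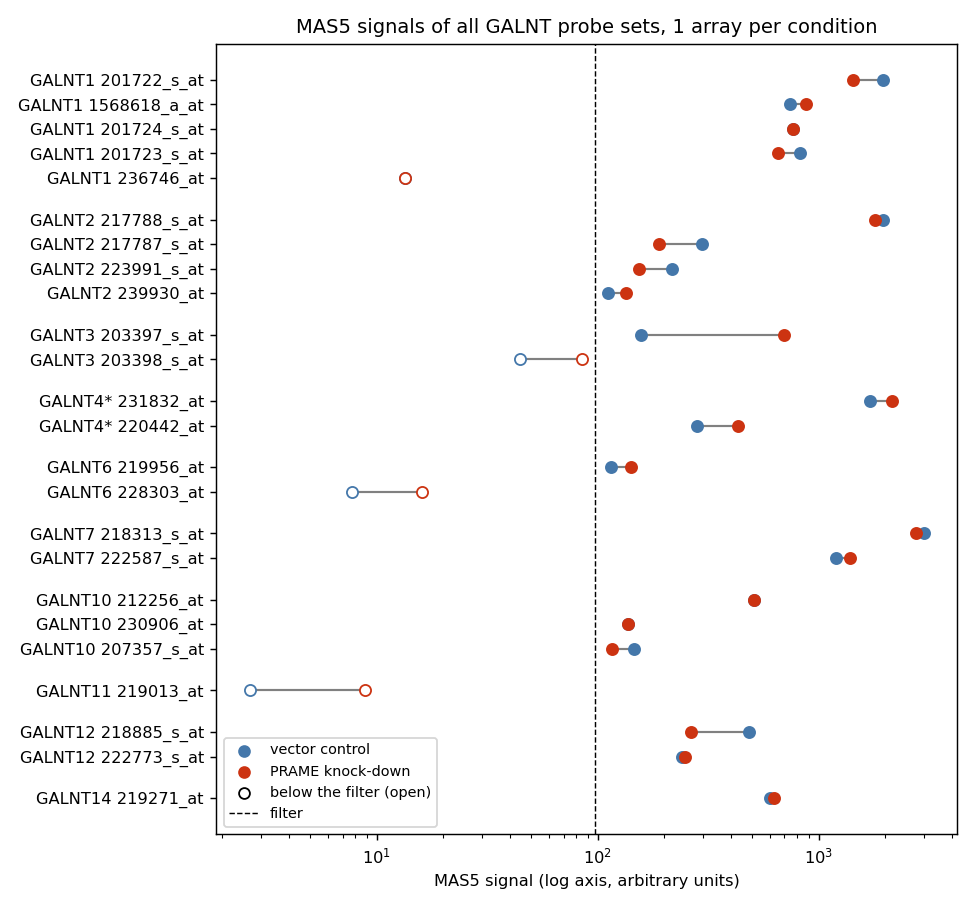
MAS5 signal (log axis, arbitrary units) of every GALNT probe set in control cells (blue) and PRAME knock-down cells (red), 1 array per condition. Open points are probe sets below the filter (dashed line at a signal of 97.7), and the asterisk marks the probe sets that GALNT4 shares with POC1B-GALNT4. The longest distance among filled points is that of the GALNT3 probe set 203397_s_at, from 156 to 699.

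GALNT3 is an enzyme of epithelial and other tissues that is known for O-glycosylation of the phosphate-regulating hormone FGF23. The signal of 203397_s_at was 156 with the control vector and 699 after knock-down, which is 4.33-fold higher (log2 ratio 2.11). Thus the control signal of this probe set was above the filter as well. Among the 1000 probe sets closest to it in mean signal, 0% had a higher log2 ratio, and their median was 0.0071. Among all measured genes, 4 had a higher log2 ratio than GALNT3.
The other GALNT3 probe set, 203398_s_at, had a signal of 44.4 with the control vector and 84.5 after knock-down. It was below the filter in both, and its log2 ratio was 0.88. At this signal the 1000 nearest probe sets had a median log2 ratio of 0.33, and 19.4% of them had a higher ratio. Both GALNT3 probe sets were thus higher in the knock-down cells, but only 1 of them had a signal above the filter. Both have the ending _s_at, which marks probe sets that can match several transcripts.
Several genes known for expression in epithelial cells were read beside GALNT3. Of 7 such markers, only CDH1 and KRT8 had kept probe sets. The signal of CDH1, which encodes E-cadherin, was 752 with the control vector and 588 after knock-down, and that of the keratin KRT8 was 157 and 159. The other 5 were below the filter on both arrays. Of these, the keratins KRT18 and KRT19 were higher after knock-down, with signals of 22.1 and 74.6 and of 4.74 and 9.09, and so was EPCAM with 25.6 and 36.6. KRT5 (38.9 and 36.2) and CLDN4 (16.6 and 15.3) were slightly lower. The summed signal of the 7 markers, each at its brightest probe set, was 1017 with the control vector and 919 after knock-down. Most of it was CDH1, and without CDH1 the sum was 265 and 331. The part of epithelial transcripts in the GALNT3 result was not tested.

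The sequences before the start sites of GALNT3 and GALNT12 are shown because these are the members past 1.5-fold in their brightest probe set. Each run is the 250 bases upstream of the annotated start, 5′ to 3′ on the strand of the gene, from RefSeq with the build GRCh38.p14. GALNT3 is at chr2:165794248-165794497 on the minus strand and GALNT12 at chr9:98807420-98807669 on the plus strand. Capitals mark matches to 5 motifs searched on both strands. These were the TATA box TATAAA, the CCAAT box, the GC box GGGCGG, the nuclear receptor half-site AGGTCA and the EGR-type motif GCGTGGGCG. Matches to GGGCGG next to each other may overlap.
GALNT3: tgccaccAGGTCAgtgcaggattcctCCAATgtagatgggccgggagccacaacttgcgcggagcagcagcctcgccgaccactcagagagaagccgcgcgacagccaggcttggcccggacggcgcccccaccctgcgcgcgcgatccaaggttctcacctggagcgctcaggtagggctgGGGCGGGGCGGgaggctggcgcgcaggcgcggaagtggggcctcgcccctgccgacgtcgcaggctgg
GALNT12: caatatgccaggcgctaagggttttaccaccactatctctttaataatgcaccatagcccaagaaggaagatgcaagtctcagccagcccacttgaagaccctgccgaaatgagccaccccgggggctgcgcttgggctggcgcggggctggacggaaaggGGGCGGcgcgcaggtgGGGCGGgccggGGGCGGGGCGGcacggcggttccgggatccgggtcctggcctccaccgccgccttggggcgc
The GALNT3 window held AGGTCA once at position -243 from the start. AGGTCA was found in 12.1% of 34943 windows of the same length, and in 2 of the 11 windows of the members, the other being that of GALNT11. GALNT3 also held CCAAT, as did 32.0% of all windows, and GGGCGG. The GALNT12 window held GGGCGG 4 times and none of the other motifs. GGGCGG was found in 8 of the 11 member windows and in 42.5% of all windows. The EGR-type motif (0.721% of all windows) and the TATA box (10.8%) were found in none of the 11 member windows. GALNT3 had 26 CpG dinucleotides in the window and GALNT12 had 21, whereas the median of all windows was 11. Over the 11 member windows the number ran from 1 to 52, and it was also 26 in 1 window of GALNT14 and 46 in that of GALNT10. These matches describe letters in the windows and say nothing about binding. No window of GALNT4 or GALNT6 was analysed here.

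GALNT6 is the closest relative of GALNT3 in the family and is known from breast cancer, but its log2 ratio was small. The signal of 219956_at was 114 with the control vector and 142 after knock-down. The log2 ratio was 0.26, and the 1000 probe sets closest in signal had a median of 0.20, so little was left above probe sets of equal brightness. A second probe set, 228303_at, had signals of 7.72 and 16.0 and is far below the filter.

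**Figure D2:**
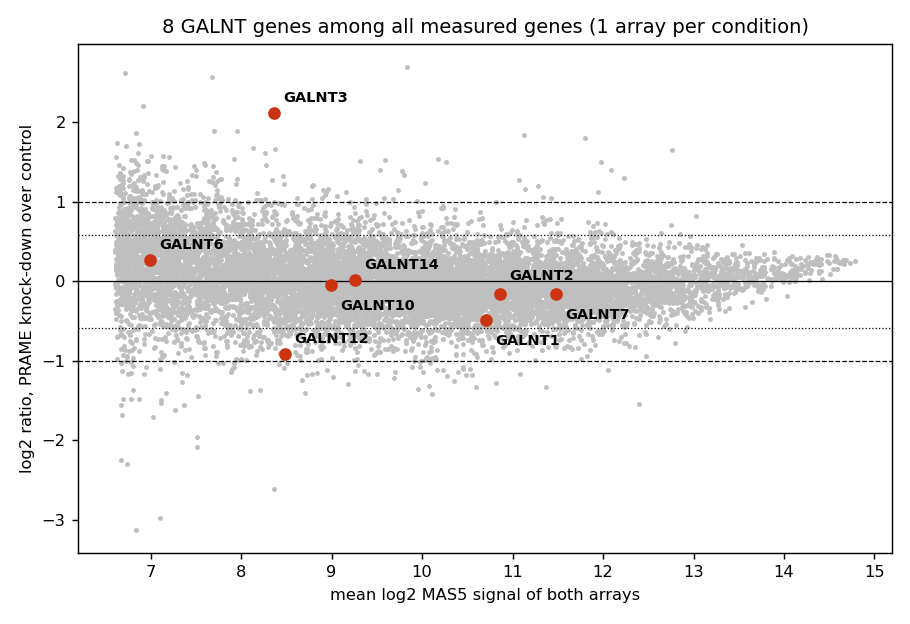
Log2 ratio of PRAME knock-down over control cells against the mean log2 MAS5 signal, 1 grey point per gene at its brightest kept probe set, 1 array per condition. Lines are drawn at 1.5-fold (dotted) and 2-fold (dashed). GALNT3 lies at 2.11 and GALNT12 at -0.91, and the other 6 members lie between the dotted lines.

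GALNT1 and GALNT2 are the broadly expressed members that act on bare peptides. For GALNT1, the brightest probe set, 201722_s_at, had a signal of 1948 with the control vector and 1436 after knock-down (log2 ratio -0.48). The signal of 201723_s_at was 825 and 652, that of 201724_s_at was 762 and 767, and that of 1568618_a_at was 738 and 872. Thus 2 probe sets of GALNT1 were lower, 1 was nearly equal and 1 was higher, and the log2 ratios ran from -0.48 to 0.20. The fifth GALNT1 probe set, 236746_at, had signals of 13.4 in both cells.
The 4 probe sets of GALNT2 also differed. GALNT2 is known to modify proteins of lipid metabolism such as apolipoprotein C-III. The brightest, 217788_s_at, had a signal of 1945 with the control vector and 1791 after knock-down (log2 ratio -0.16). The signal of 217787_s_at was 298 and 189, which is 1.63-fold lower, and that of 223991_s_at was 218 and 153 (log2 ratio -0.55). In 239930_at the signal was 111 and 134. All 3 GALNT2 probe sets with the ending _s_at were therefore lower, by 1.12-fold to 1.63-fold, and the remaining one was higher. The range of 0.92 over the GALNT2 probe sets exceeded the range in 83.8% of the 681 further genes that also had 4 kept probe sets.

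GALNT12 is a glycopeptide-preferring enzyme of the digestive tract. Its brightest probe set, 218885_s_at, gave 484 with the control vector and 265 after knock-down, which is 1.88-fold lower (log2 ratio -0.91). Only 1.5% of the 1000 nearest probe sets had a lower log2 ratio. In the second probe set, 222773_s_at, the signal was 241 with the control vector and 248 after knock-down (log2 ratio -0.0038). The lower signal of GALNT12 was therefore found in 1 of its 2 probe sets. Their range of 0.91 exceeded the range in 93.5% of the 3104 further genes that also had 2 kept probe sets.
GALNT7 and GALNT10 prefer peptides that already carry GalNAc. The GALNT7 probe sets were bright and moved little, with signals of 2988 and 2751 for 218313_s_at and of 1197 and 1378 for 222587_s_at in control and knock-down cells. Their log2 ratios were -0.16 and 0.16. For GALNT10, the signal of 212256_at was 509.6 with the control vector and 508.8 after knock-down. The signal of 230906_at was 136 and 137, and that of 207357_s_at was 146 and 116 (log2 ratio -0.38). No probe set of these 2 genes was past 1.5-fold.
GALNT4, a further glycopeptide-preferring enzyme, can only be read together with POC1B-GALNT4. The signal of 231832_at was 1699 with the control vector and 2145 after knock-down, and that of 220442_at was 282 and 431. Both were higher, with log2 ratios of 0.29 and 0.57. POC1B, the centriole gene that shares the readthrough transcript, had signals of 2709 and 3844 (226283_at, log2 ratio 0.46). The part of each transcript in these signals was not tested.

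GALNT14 has been linked to O-glycosylation of the TRAIL death receptors. Its only probe set, 219271_at, had a signal of 599.9 with the control vector and 625 after knock-down, and a log2 ratio of 0.014. The death receptor genes themselves were also close in both cells. The log2 ratio was 0.044 for TNFRSF10A and 0.0029 for TNFRSF10B.
GALNT11, known for O-glycosylation of NOTCH1, had 1 probe set, 219013_at. Its signals of 2.67 with the control vector and 8.80 after knock-down were far below the filter. No log2 ratio is drawn from them, except in the alternative with no filter.

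Of 10 further genes of the family, GALNT13 was the one past 1.5-fold. GALNT13 is the closest relative of GALNT1 and is known from the nervous system. All 3 of its probe sets were higher in the knock-down cells. The signal was 457 with the control vector and 775 after knock-down for 234472_at, 359 and 446 for 236536_at, and 168 and 314 for 243779_at. The log2 ratios were 0.72, 0.27 and 0.86. GALNT18 had 1 kept probe set with signals of 111 and 119. The remaining 8 genes had none. Over all 10 genes, 17 of 21 probe sets were below the filter, with signals between 2.51 and 105. Of these 17, 14 had a log2 ratio above 0, and 12 had one above the median of the 1000 probe sets nearest in signal. Those medians lay between 0.25 and 0.41.

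The members were set beside their neighbours on the chromosome, in the gene order of RefSeq, because neighbouring genes were known to be shifted together in places. The 10 nearest measured genes of GALNT3 on chromosome 2 had a median log2 ratio of -0.23, and the whole chromosome had 0.014. The neighbours of GALNT3 ran from -1.21 for COBLL1 to 1.28 for DHRS9, a retinol dehydrogenase. The signal of DHRS9 was 74.5 with the control vector and 187 after knock-down, so it passed the filter only through the knock-down array. GALNT3 was thus higher than each of its 10 neighbours. In its brightest probe set, GALNT12 on chromosome 9 was lower than each of its 10 neighbours, whose log2 ratios ran from -0.57 to 0.57. Their median was -0.15. The median over the 2 kept probe sets of GALNT12 was -0.46, which lies within the range of these neighbours.
GALNT1 lay within the range of its neighbours. It lies on chromosome 18, where the 169 other measured genes had a median of -0.30, and its 10 neighbours had a median of -0.26. The log2 ratio of GALNT1 was -0.48 in the brightest probe set and -0.21 as the median over its 4 kept probe sets, close to that of its surroundings. The part of the chromosome in the GALNT1 signal was not tested, and arrays of RNA hold no copy number. The 10 neighbours of GALNT10 on chromosome 5 had a median of -0.24 and GALNT10 a log2 ratio of -0.047. For GALNT4, the 10 neighbours on chromosome 12 had a median of 0.17.

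**Figure D3:**
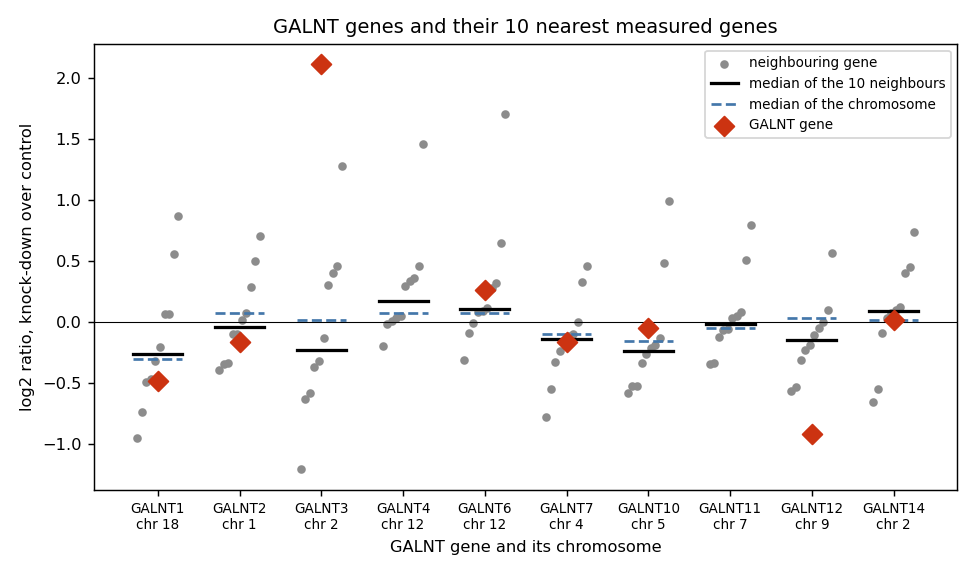
Log2 ratio of PRAME knock-down over control cells for each GALNT gene (red diamond) and its 10 nearest measured genes (grey points), with the median of the neighbours (black line) and of the other genes of the chromosome (blue dashed line), 1 array per condition. GALNT4 and GALNT11 have no diamond because no kept probe set with 1 symbol measured them. Drawn at the brightest kept probe set, GALNT3 lies above and GALNT12 below all of their neighbours, whereas GALNT1 lies within the range of its own. The median over the 2 kept probe sets of GALNT12, -0.46, lies within the range of its neighbours.

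Genes of 7 lists around the starting enzymes were examined as well. Of their 57 measured genes, 3 were at least 1.5-fold lower (5.26%, against 5.42% of all genes) and 4 were at least 1.5-fold higher (7.02%, against 7.54%). The median log2 ratio of these genes was 0.0029. The shares were thus near those of all genes. One of the 4, CD34, passed the filter only through the knock-down array, and without it 3 of 56 were higher (5.36%). GALNT13 was 1 of the 4 higher genes.
After the first GalNAc, C1GALT1 adds galactose with the help of its chaperone C1GALT1C1, and GCNT1 makes the branched core. Of 6 measured genes for core extension, only GCNT1 was past 1.5-fold in its brightest probe set. Its signal was 3123 with the control vector and 1957 after knock-down for 239761_at (log2 ratio -0.72), and the log2 ratio was -0.40 in its second probe set. The signal of C1GALT1 was 954 with the control vector and 1237 after knock-down (log2 ratio 0.33), and that of C1GALT1C1 was 767 and 930 by 219283_at (log2 ratio 0.23). The sulfotransferase CHST4 had signals of 161 and 243, and the galactosyltransferase B4GALT1 had a log2 ratio of -0.38. Over all kept probe sets, B4GALT1 ran from -1.07 to -0.21 and C1GALT1 from 0.083 to 0.66, so both had a probe set past 1.5-fold. The median of this list was 0.17.
Sialyltransferases cap the sugar chain. All 4 measured genes had log2 ratios above 0, as did 49.0% of all genes, and were within 1.5-fold, from 0.025 for ST3GAL1, which was bright with signals of 4169 and 4376, to 0.46 for ST3GAL2. ST6GALNAC4 had a log2 ratio of 0.39. That of ST6GALNAC6 was 0.064, below the median of 0.20 of probe sets of equal brightness. The kept probe sets of ST3GAL1 ran from -0.051 to 0.57 and those of ST3GAL2 from -0.28 to 0.46, so the direction differed between probe sets in both genes.
Genes for the supply of sugar donors did not pass 1.5-fold in either direction. Log2 ratios were below 0 for 9 of the 11 measured, against 51.0% of all genes, and the median was -0.086. The lowest were NANS, a sialic acid synthase that is also a neighbour of GALNT12 (-0.53), GNPNAT1 (-0.37) and UAP1, which makes the UDP-sugar precursor (-0.36). For the genes of this list, the 1000 probe sets nearest in signal had medians from -0.096 to 0.067. SLC35A1 (-0.086) and GNE (-0.083) lay close to theirs (-0.082 and -0.092). As medians over their kept probe sets, CMAS and SLC35A2 were above 0 (0.047 and 0.051).

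Enzymes that start other kinds of O-glycosylation went in both directions. Among 10 measured genes the median log2 ratio was -0.11, but with the filter at the 75th percentile it was 0.14 over 5 genes. The O-mannosyltransferase POMT1 had a signal of 400 with the control vector and 227 after knock-down (log2 ratio -0.86), and its partner POMT2 had a log2 ratio of -0.40. The xylosyltransferase XYLT1, which starts proteoglycan chains, had a signal of 293 and 531 (log2 ratio 0.81). Its only kept probe set, 213725_x_at, has the ending _x_at, so XYLT1 was not measured where such probe sets were left out. OGT, the enzyme for O-GlcNAc on nuclear and cytosolic proteins, had a log2 ratio of 0.081 in its brightest probe set, whereas the median of its 6 kept probe sets was -0.32 and 4 of them were below 0.
The oligosaccharyltransferase, which starts N-glycosylation, had a median of -0.044 over 9 measured subunits. In their brightest probe sets, all of these were within 1.5-fold. Over all kept probe sets, DDOST ran from -0.88 to 0.015 and MAGT1 from 0.11 to 0.76, so both had a probe set past 1.5-fold. By the brightest probe set, the catalytic subunit STT3A was the lowest with a log2 ratio of -0.43. It was followed by RPN2 with -0.36 and the other catalytic subunit STT3B with -0.27.
Proteins known to carry mucin-type O-glycans had a median of 0.044 over 15 measured genes, which was -0.071 over 16 genes with no filter. PTPRC, which encodes the phosphatase CD45, had a signal of 325 with the control vector and 692 after knock-down (2.07-fold higher), and its 3 kept probe sets had log2 ratios from 0.64 to 1.05. CD34 had signals of 96.2, which is below the filter, and 159.8 (log2 ratio 0.69). SPN, which encodes CD43, a main O-glycosylated protein of leukocytes, had a signal of 309.7 and 210.5 (log2 ratio -0.60). MUC1 had signals of 142 and 215 (log2 ratio 0.55), and the log2 ratio of NOTCH1 was -0.39.

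**Figure D4:**
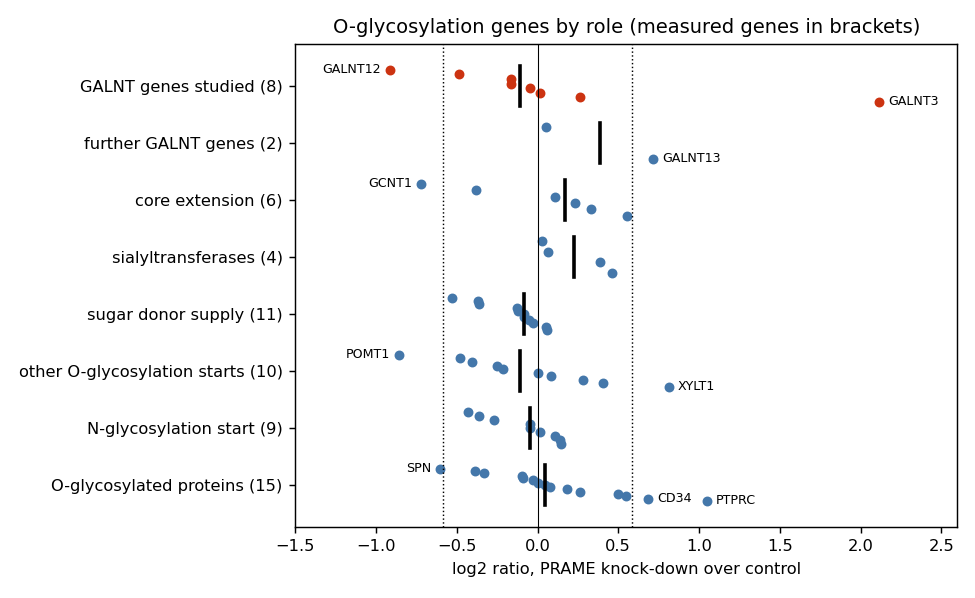
Log2 ratio of PRAME knock-down over control cells for the measured genes of the GALNT family and of 7 lists by role (number of measured genes in brackets), 1 point per gene, 1 array per condition. Black lines are list medians and dotted lines stand at 1.5-fold. GALNT3 at 2.11 is the farthest point, and the named points are those past 1.5-fold.

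These are bulk samples, so fewer cells with a transcript and less transcript per cell cannot be told apart. Apart from the summed signals of marker genes, signals were not compared between genes, since brightness also varies with the probes. Those sums add probe sets of different genes and carry this limit.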

How the data were processed

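Gene expression was measured on Affymetrix HG_U133PLUS2.0 arrays, 1 for each of both L-428 cell populations. The authors ran the MAS5 algorithm of Expression Console 1.1 and deposited linear intensities, corrected for background and scaled to one mean. No intensity was changed before the log2 scale was taken, and no offset was added. MAS5 estimates each array on its own.

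Without the 62 control probe sets, the platform annotation listed 1 symbol for 41097 probe sets and several for 1801, while 11777 of all probe sets lacked one. By gene ID, RefSeq (GRCh38.p14) held 41043 of those with 1 symbol, among them all 22 of the members. The annotation names no genome build, so this table served only for names, chromosomes and gene order, and the promoter sequences carry the build of their own table. The filter kept 27307 probe sets, and the brightest of these (by mean signal) stood for its gene. Each log2 ratio was also set beside those of the 1000 probe sets closest in mean log2 signal. Neighbouring genes were the 5 nearest measured genes on each side. With 1 array per condition no p-value was computed.

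The members and the gene lists were chosen with earlier results of these data known. All members and their probe sets are named, and from each list the genes past 1.5-fold and, where there were none, up to 3 with the largest log2 ratios; TNFRSF10A, TNFRSF10B, NOTCH1, MUC1, OGT, POMT2, ST3GAL1, B4GALT1, CHST4, C1GALT1, C1GALT1C1, POC1B, COBLL1, DHRS9 and the epithelial markers were named for their role, position or rank after their values were seen. DDOST and MAGT1 were named for the range of their probe sets, also after their values were seen. RMA values, detection calls and protein sequences were not analysed here. The steps were tested on simulated data. Tried as alternatives were quantile normalization, a loess curve taken off the log2 ratios (span 0.4), signals not centered, 64 added to each signal, filters of none or of the 75th percentile, a median per gene, and leaving out _s_at, _x_at and _a_at probe sets; the inclusion of the GALNT4 probe sets with 2 symbols was added after seeing the data. Computations ran in Python 3.11.15 with pandas 2.3.3, numpy 2.4.6 and statsmodels 0.14.6, and plots in matplotlib 3.10.9.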

Additional observations from a re-analysis of the deposited data

How the results depend on the processing

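GALNT3 had a log2 ratio between 1.75 (offset of 64) and 2.16 (no centering) in every alternative that measured it. It was not measured with the filter at the 75th percentile (a signal of 484) or without the endings _s_at, _x_at and _a_at, which removed both of its probe sets. GALNT12 was likewise not measured in those 2 settings, and its log2 ratio ran from -1.01 to -0.46 in the others. With the filter at the 75th percentile, 0 of 5 member genes and 0 of 9 member probe sets were past 1.5-fold or 2-fold in either direction. In that setting 3.44% of all genes were 1.5-fold higher and 3.69% lower. The shares of all kept probe sets were 3.75% and 4.07%, and at 2-fold 0.557% and 0.41%. Of the 7 lists, 1 gene was higher and 1 lower. Without the endings, 0 of 4 member genes and 0 of 5 member probe sets were past either threshold, and the median of the members was 0.12. Of all genes, 8.05% were 1.5-fold higher and 5.92% lower in that setting. The shares of all kept probe sets were 9.55% and 6.0%, and at 2-fold 1.96% and 0.933%. Of the lists, 2 genes were higher. With no filter, 2 member genes were at least 1.5-fold higher, GALNT3 and GALNT11. For GALNT11 this rests on signals of 2.67 and 8.80, far below the filter used elsewhere. In the same setting, 4 of 22 member probe sets were 1.5-fold and 2 were 2-fold higher, and 1 was 2-fold lower. Of 76 list genes, 12 were higher and 6 lower. Without the filter 17.6% of all genes were 1.5-fold higher and 11.8% lower, and of all probe sets 19.8% were 1.5-fold higher, 11.1% were 2-fold higher and 7.24% were 2-fold lower. With the median over probe sets, 0 members were 1.5-fold lower (4.49% of all genes were). The offset of 64 left 1 member probe set 1.5-fold lower (4.05% of all kept probe sets were). For a value, a move was judged against 0.33 on the log2 scale, the SD between probe sets of one gene, since there are no replicates. For a median, this SD was divided by the square root of the number of genes. By this rule GALNT3 moved with the offset of 64, from 2.11 to 1.75. GALNT12 moved with the median over probe sets, from -0.91 to -0.46. GALNT2 moved without the endings, from -0.16 to 0.22, which changed its sign. The log2 ratios of the other measured members did not move. The median of the enzymes for other O-glycosylation was -0.33 without the endings, and that of the oligosaccharyltransferase ran from -0.11 to 0.0455. Detection above background was not analysed here, and only the filter on signal stands in for it. No paired analysis was possible because there is 1 array per condition.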

Other observations

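GALNT7-DT, a long noncoding RNA that starts next to GALNT7, was measured by 3 probe sets that differed. The signal of 1557878_at was 88.8 with the control vector and 126 after knock-down, that of 1562053_at was 93.6 and 99.2, and that of 240212_at was 74.3 and 30.0. Only the first was kept, with a log2 ratio of 0.46. FGF23, the protein best known as a target of GALNT3, had signals of 28.7 with the control vector and 9.08 after knock-down, below the filter in both.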
